A study of Mus musculus with 4 samples.

Results

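The 10 genes described here mark macrophages and were measured on 4 arrays of mouse white adipose tissue: Adgre1, Cd68, Lyz2, Ms4a7, Csf1r, Cd14, Cd84, Dpep2, Rgs1 and Lat2. They were chosen by name, with earlier results of these arrays known, and the values that led to the choice were their differences between the arrays, so those differences are given as a description with no test. Every probe whose symbol in the platform annotation is one of the 10 names was taken. This gave 26 probes for 9 of the 10 genes, out of 45281 probes in all. Cd68 was not analysed here, because the annotation used lists no probe under its name. Of the 26 probes, 24 were detected on at least 1 array, 18 on all 4 and 2 on no array. The 9 genes were set beside the 11384 genes detected on at least 1 array.

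Macrophages are phagocytes that arise from blood monocytes or from embryonic precursors, and they depend on the growth factor receptor encoded by Csf1r for survival. In adipose tissue they clear dying adipocytes and take up the lipid these release, and their number is known to rise in obesity. F4/80, the product of Adgre1, is the surface antigen most used to count them in mouse fat. Several of the genes are not exclusive to macrophages. Lyz2 is also used by neutrophils, Rgs1 by activated lymphocytes, Cd84 by B cells and mast cells, and Lat2 by B cells and mast cells.

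The mice were female C57BL/6 animals, an inbred strain, and 9 months old. The F0 high fat array, the F1 high fat array and the F2 high fat array each held a mixture of 4 RNA samples, from mice of that generation fed a high fat diet in which fat gave 60% of the calories. The chow array held a mixture of 3 RNA samples from mice on normal chow. The labels give 9 months as the length of each diet, and leave unsaid if each mixed sample was a separate animal. With 1 array per group no difference between 2 arrays has a replicate check, and precision is limited by how few arrays there are.

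The deposited intensity is a linear brightness per probe with the same mean of 274.4 on each array. A probe was called detected at a detection p under 0.01, which 37.8 to 40.9% of all probes reached. Differences are on the log2 scale of background-corrected, quantile-normalized signals, and a gene takes the value of its brightest probe. The lowest detected log2 signals lay between 4.77 and 4.94. As a technical gauge, probes for a single gene were compared, and their log2 differences from chow had an SD of 0.305 on F0, 0.290 on F1 and 0.314 on F2, over 3069 genes. Of 14 adipocyte markers 12 had a probe, and these 12 were detected on all 4 arrays. Adiponectin (Adipoq) lay at 13.68, 13.49 and 13.17 on the F0, F1 and F2 arrays, against 13.64 on chow. From F0 to F2 the adipocyte markers ran the other way from the macrophage genes: 12 of 12 were lower on F2 than on F0, with a median log2 difference of -0.70 and 5 of 12 at least 2-fold lower. The chow array also stood apart in mesothelial markers: all 7 in the table were at least 2-fold lower on each high fat array than on it. Hepatocyte markers, 5 of 8, summed to 270 on F0, 3824 on F1 and 9727 on F2, against 154 on chow. The rest of that list, Alb, Fgb and Tat, was detected on no array. Of 8 skeletal muscle markers, 4 were at least 2-fold lower than on chow on F0, 4 on F1 and 5 on F2. At least 2-fold higher were 1 on F0 (Acta1), 1 on F1 (Pvalb) and 0 on F2. The summed signal of the 8 was 6196, 5147 and 3832, against 6014 on chow. The part of these tissues in the values of the macrophage genes was not tested.

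All 9 genes were brighter on each of the 3 high fat arrays than on chow. Their median log2 difference was 2.68 on the F0 array, 3.53 on F1 and 3.79 on F2, where the median of all genes was -0.01, -0.02 and -0.09. The count of higher genes takes those that a high fat array detected at 2-fold or more over chow. By it, 8 of 9 were higher on F0, against 6.69% of all genes, 9 of 9 on F1, against 7.38%, and 9 of 9 on F2, against 9.35%. At least 2-fold lower were 0 of 9 on each array, against 6.65% of all genes on F0, 6.31% on F1 and 8.24% on F2. The exception was Csf1r on the F0 array. These counts follow from how the genes were chosen, and all 3 comparisons share the 1 chow array. In RNA from whole tissue, a change in the number of cells of a type and a change in RNA per cell cannot be told apart.

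**Figure D1:**
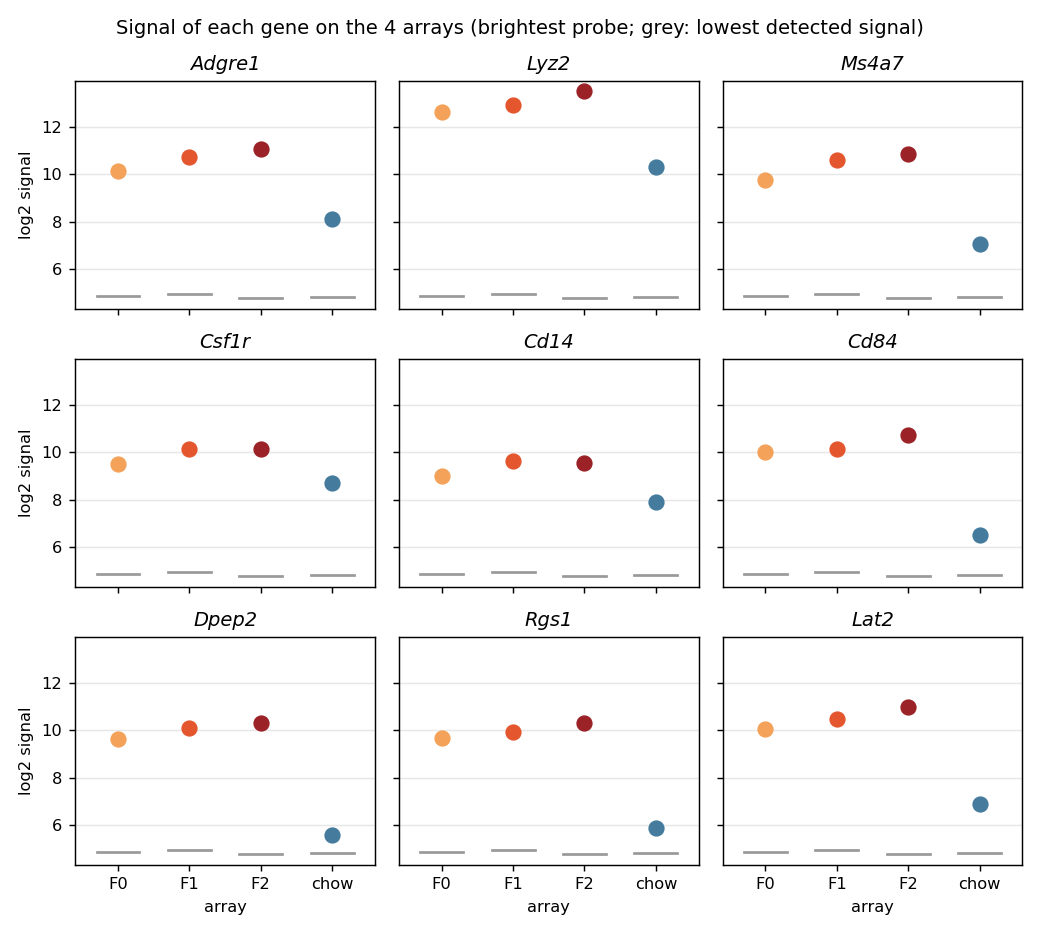
Log2 signal (vertical axis) of the brightest probe of each of the 9 genes on the F0, F1, F2 and chow arrays (horizontal axis), 1 point per array, with a grey bar at the lowest detected signal of that array. Every high fat point lies above the chow point of its gene, and Dpep2 and Rgs1, at 5.59 and 5.88 on chow, start nearest to the detection limit.

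Among the surface receptors, Adgre1 had deposited intensities of 1165 on F0, 1757 on F1 and 2116 on F2, against 333 on chow (probe ILMN_1216880). The 3 high fat arrays lay well above chow and in the order of the generations. The folds over chow were 3.98, 6.04 and 7.60. A further probe, ILMN_2847787, gave log2 differences of 2.06, 2.79 and 2.79, close to the 1.99, 2.60 and 2.93 of the brightest one. The last probe was not detected on chow, and it was at least 2.37-fold, 2.78-fold and 4.05-fold higher on F0, F1 and F2. A fold given as "at least" takes as the chow value the dimmest signal that array detected.

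Csf1r encodes the receptor for the growth factors Csf1 and Il34. Its intensities were 758 on F0, 1167 on F1 and 1176 on F2, against 473 on chow (ILMN_2710819). It was the least different of the 9 genes, with the F1 and F2 arrays level with each other. The folds over chow were 1.76, 2.69 and 2.74, and its log2 difference ranked 1064 among 11384 genes on F0, 452 on F1 and 638 on F2. The second probe, ILMN_1230485, gave log2 differences of 0.75, 1.24 and 1.46, beside 0.81, 1.42 and 1.46 for the brightest.

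Cd14, the co-receptor that hands bacterial lipopolysaccharide to Tlr4, has a single probe, ILMN_2742075. It read 527 on F0, 830 on F1 and 799 on F2, against 292 on chow. The F1 and F2 arrays again lay side by side above F0, and the folds over chow were 2.13, 3.32 and 3.18. The 2-fold count on F0 rests on a value near the limit: the log2 difference of 1.09 was 0.97 with no background step, 0.99 at an offset of 50 and 0.96 under median scaling.

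Cd84 belongs to the SLAM family, receptors on blood cells that bind their own kind on a neighbouring cell. Its brightest probe, ILMN_2754698, read 1061 on F0, 1180 on F1 and 1714 on F2, against 138 on chow. These are 11.2-fold, 12.4-fold and 18.8-fold over chow, the F2 array being the highest. The probes of Cd84 did not give the same size. ILMN_2560379 gave log2 differences of 1.73, 1.51 and 1.69, against 3.49, 3.63 and 4.23 for the brightest probe, and the mean of the probes gave 2.11, 2.07 and 2.47. The dimmer pair of probes was designed on cDNA clones and not on the reference transcript, per the annotation's accessions.

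Among the effector genes, Lyz2 encodes the lysozyme of macrophages, an enzyme that cuts bacterial cell walls. Its brightest probe, ILMN_1252076, read 6376 on F0, 7756 on F1 and 11881 on F2, against 1279 on chow. The F2 array stood highest, and the folds over chow were 5.03, 6.14 and 9.24. A second bright probe, ILMN_2939681, gave log2 differences of 1.87, 2.06 and 2.69, beside 2.33, 2.62 and 3.21. A further dim probe, not detected on chow, was at least 1.36-fold, 1.22-fold and 1.48-fold higher, and the mean of all 3 probes gave 1.62, 1.72 and 2.22.

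Lyz2 lies beside a near copy, Lyz1, the lysozyme of the intestine, and probes for either may pick up transcripts of both, so the values of each are uncertain. The brightest Lyz1 probe, ILMN_2878071, read 17830 on F0, 19410 on F1 and 22113 on F2, against 7213 on chow. It followed the order of Lyz2, with smaller log2 differences of 1.28, 1.37 and 1.51. The other Lyz1 probes did not follow that order. ILMN_1247933 gave 1.28, 0.43 and 1.43, and ILMN_2736867 gave 0.49, -0.21 and 0.37.

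The stretches of 250 bases before the start sites of Lyz2 and Lyz1 are shown with those of Ms4a7 and Cd84 (RefSeq, GRCm38.p6, gene strand, 5′ to 3′). This lets the near copies be compared with other genes of the group. Of the 10 genes, 4 have an entry in the RefSeq table used: Lyz2, Ms4a7, Cd84 and Cd68. Cd68 has no measured value here and is not shown. Capitals mark matches, on either strand, to GGAAGT, a core bound by PU.1 and other ETS factors. PU.1, the product of Spi1, is the transcription factor that sets up the macrophage lineage. The stretches are chr10:117282273-117282522 on the minus strand for Lyz2, chr10:117292869-117293118 on the minus strand for Lyz1, chr19:11336147-11336396 on the minus strand for Ms4a7 and chr1:171839447-171839696 on the plus strand for Cd84.
Lyz2: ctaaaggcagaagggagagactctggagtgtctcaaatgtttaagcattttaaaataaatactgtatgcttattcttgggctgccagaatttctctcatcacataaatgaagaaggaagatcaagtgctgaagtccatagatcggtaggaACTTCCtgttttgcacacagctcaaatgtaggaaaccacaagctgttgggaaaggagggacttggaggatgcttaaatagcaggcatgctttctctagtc
Lyz1: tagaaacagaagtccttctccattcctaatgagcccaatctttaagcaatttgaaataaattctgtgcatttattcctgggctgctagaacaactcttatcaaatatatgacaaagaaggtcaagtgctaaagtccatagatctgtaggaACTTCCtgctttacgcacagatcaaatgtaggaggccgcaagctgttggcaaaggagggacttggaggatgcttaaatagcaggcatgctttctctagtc
Ms4a7: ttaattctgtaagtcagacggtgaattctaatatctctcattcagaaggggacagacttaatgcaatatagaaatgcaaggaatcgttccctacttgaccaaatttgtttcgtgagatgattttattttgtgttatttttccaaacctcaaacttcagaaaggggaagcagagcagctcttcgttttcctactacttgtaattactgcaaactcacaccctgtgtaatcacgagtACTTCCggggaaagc
Cd84: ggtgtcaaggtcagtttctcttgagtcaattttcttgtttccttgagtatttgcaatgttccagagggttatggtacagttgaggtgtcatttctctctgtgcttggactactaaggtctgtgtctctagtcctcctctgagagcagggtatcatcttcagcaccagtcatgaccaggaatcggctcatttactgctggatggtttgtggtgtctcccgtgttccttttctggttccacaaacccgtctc

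Lyz2 and Lyz1 were identical at 92 of the last 100 bases before the start and at 152 of 250, compared base by base without gaps. Both hold 1 match, beginning 100 bases before the start, and Ms4a7 holds 1, beginning 15 bases before it. A second annotated start of Ms4a7 and the start of Cd84 had no match in this window. Of 32851 promoter windows of the same length, 19.7% hold at least 1 match. The AP-1 and C/EBP motifs were searched on both strands. TGANTCA (AP-1) was in the window of Cd84 and of the second Ms4a7 start and is in 6.75% of all windows, and TTNNGNAA (C/EBP) was in all of these windows and is in 36.8% of all. A match is a description of letters, not a bound site.

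Dpep2 encodes a membrane dipeptidase that converts leukotriene D4 to leukotriene E4. Its brightest probe, ILMN_2692316, read 816 on F0, 1145 on F1 and 1298 on F2, against 90.1 on chow. By the brightest probes it had the largest differences of the 9 genes, 16.3-fold, 22.7-fold and 26.4-fold over chow, and ranked 10, 11 and 20 among all genes. The neighbouring probe ILMN_2692315 gave log2 differences of 3.99, 4.29 and 4.46, beside 4.03, 4.51 and 4.72. The dimmer ILMN_1234229 gave 2.44, 2.70 and 2.61. ILMN_2511213, not detected on F1 or chow, was at least 1.19-fold higher on F0 and 1.23-fold on F2. With chow at 5.59, the size depends on the background step and on the probe: for F2 it was 3.87 without background correction, 5.15 with the authors' value table and 3.17 over the mean of the probes. By that mean, Rgs1 at 4.10 and Lat2 at 3.87 on F2 lay above Dpep2. Dpep3, the gene next to Dpep2, was detected on no array, and Dpep1, a further family member, lay at 9.44, 9.51 and 9.85 on F0, F1 and F2, against 8.92 on chow.

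Among the signalling genes, Ms4a7 encodes a membrane protein with several membrane spans found on macrophages. Its brightest probe, ILMN_3091003, read 893 on F0, 1605 on F1 and 1828 on F2, against 183 on chow. By the brightest probes, the step between F0 and F1 was the widest of the 9 genes, and the folds over chow were 6.43, 11.6 and 13.8. A probe not detected on chow was at least 2.74-fold, 3.27-fold and 4.69-fold higher. Another was detected on F1 alone, at least 1.11-fold over chow, and the last on no array. The mean over the 3 detected probes was 1.48, 2.07 and 2.10 on the log2 scale, against 2.68, 3.53 and 3.79 for the brightest.

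Rgs1 encodes a brake on G protein signalling from chemokine receptors. Its brightest probe, ILMN_2625377, read 860 on F0, 1019 on F1 and 1287 on F2, against 102 on chow. The folds over chow were 14.1, 16.4 and 21.4, with ranks of 13, 20 and 26 among all genes. Its other probes gave the same picture, with log2 differences of 3.57, 3.58 and 4.11 for one and 3.36, 3.58 and 3.79 for the other, beside 3.81, 4.04 and 4.42.

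Lat2 encodes an adaptor that links immune receptors with ITAM motifs to calcium signalling. Its brightest probe, ILMN_3143483, read 1088 on F0, 1477 on F1 and 1991 on F2, against 168 on chow, which is 8.68-fold, 11.7-fold and 16.7-fold over chow. The 3 high fat arrays stood in the order of the generations. The second probe, ILMN_2473562, gave log2 differences of 2.57, 2.92 and 3.67, beside 3.12, 3.55 and 4.06, and the remaining one was detected on no array.

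Each of the 24 probes detected on at least 1 array had a higher log2 signal on each high fat array than on chow. The log2 differences ran from 0.06 to 4.03 on F0, from 0.47 to 4.51 on F1 and from 0.03 to 4.72 on F2, with 19, 21 and 21 probes at 1 or above. The smallest belonged to probes not detected on chow. Among them, the Ms4a7 probe ILMN_1252361 was also not detected on F0 or F2, and the Dpep2 probe ILMN_2511213 was not detected on F1. On those arrays these probes are not shown to lie above chow.

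**Figure D2:**
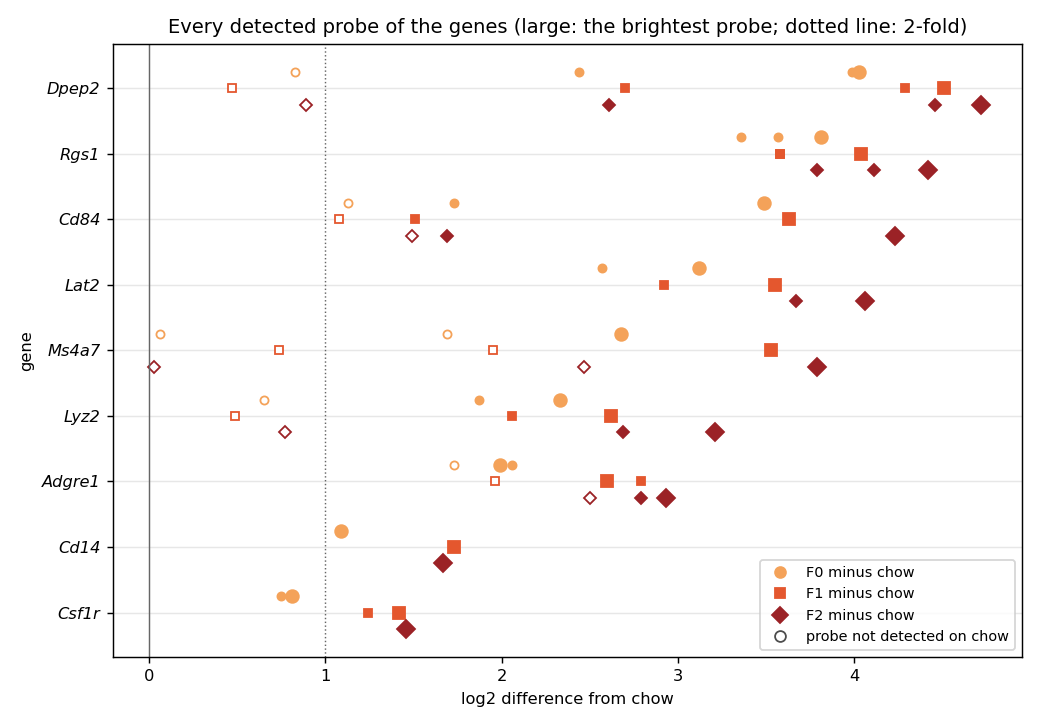
Log2 difference from chow (horizontal axis) of each of the 24 detected probes, by gene (vertical axis, ordered by the mean difference of the brightest probe) and by array (symbols). Large symbols are the brightest probe of a gene and open symbols are probes not detected on chow. The 3 probes of Rgs1 lie between 3.36 and 4.42, whereas those of Dpep2, Cd84 and Ms4a7 are spread widely.

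Between generations on the high fat diet the differences were smaller. F1 lay above F0 in 9 of 9 genes, with log2 differences from 0.15 for Cd84 to 0.85 for Ms4a7 and a median of 0.48, where 49.8% of all genes were higher on F1. At 2-fold, 0 of 9 were higher, against 0.835% of all genes, and 0 lower, against 0.0703%. The SD between probes was 0.162 for this comparison, and 8 of 9 genes lay above F0 by more than it, as did 24.1% of all genes. Cd84 did not, and over the mean of its probes it differed by -0.04.

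F2 lay above F1 in 8 of 9 genes, with a median of 0.33, where 43.7% of all genes were higher on F2. At 2-fold, 0 of 9 were higher, against 3.09% of all genes, and 0 lower, against 0.799%. The SD between probes was 0.213, and 7 of 9 lay above F1 by more than it, as did 22.9% of all genes. Cd14 at -0.06 and Csf1r at 0.03 did not differ beyond it, and the sign of Csf1r turned to -0.01 with median scaling. Dpep2, at 0.22, lay just beyond.

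F2 lay above F0 in 9 of 9 genes, with log2 differences from 0.58 for Cd14 to 1.10 for Ms4a7 and a median of 0.75, where 45.8% of all genes were higher on F2. Beside this, the medians of the adipocyte and endothelial markers were -0.70 and -0.60. By the brightest probes Ms4a7 alone reached 2-fold, 1 of 9, against 4.62% of all genes, and 0 were lower, against 2.53%. Lat2 followed at 0.95, Adgre1 at 0.93 and Lyz2 at 0.88. All 9 lay above F0 by more than the SD between probes of 0.239, as did 26.7% of all genes. Which gene passed 2-fold depended on the probe: the Lat2 probe ILMN_2473562 gave 1.10 and the Ms4a7 probe ILMN_3019158 gave 0.78. Over the settings tried, Ms4a7 ran from 0.62 to 1.10 and Lat2 from 0.88 to 1.02. In 8 of 9 genes the arrays stood in the order chow, F0, F1, F2, as in 9.86% of all genes. Cd14 was the exception.

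By their brightest probes the 9 genes differed in which step was larger. Ms4a7, Cd14, Csf1r, Adgre1 and Dpep2 differed more between F1 and F0, by 0.48 to 0.85, than between F2 and F1, by -0.06 to 0.33. Cd84, Lyz2, Lat2 and Rgs1 differed more between F2 and F1, by 0.38 to 0.60, than between F1 and F0, by 0.15 to 0.44. For Lat2, at 0.51 and 0.44, and Rgs1, at 0.38 and 0.23, the steps were closer to each other than the SD between probes. Over the mean of its probes Dpep2 had steps of 0.17 between F1 and F0 and 0.18 between F2 and F1. That mean includes ILMN_2511213, which was not detected on F1. Each Dpep2 probe detected on all 4 arrays gave the larger step between F1 and F0. A probe of Adgre1 (ILMN_2756353) gave 0.23 and 0.54, and a probe of Ms4a7 (ILMN_3019158) gave 0.25 and 0.52. A probe of Rgs1 (ILMN_2897891) gave 0.22 and 0.21. The order of the steps thus depends on the probe for Adgre1, Ms4a7 and Rgs1.

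**Figure D3:**
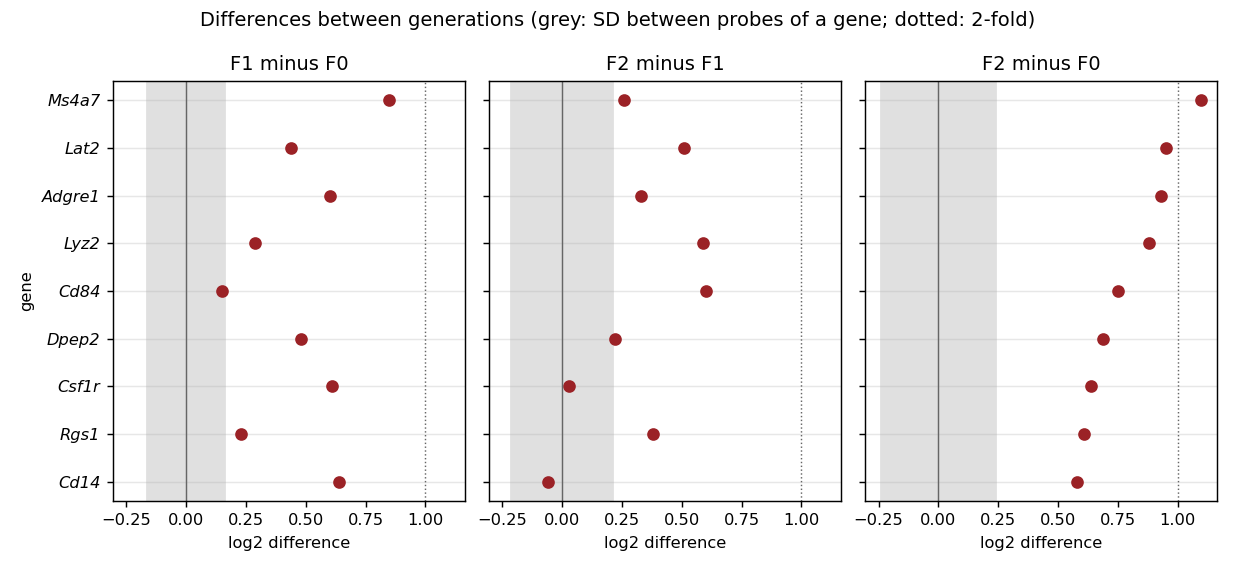
Log2 differences between generations on the high fat diet (horizontal axis) for the brightest probe of each of the 9 genes (vertical axis), as F1 minus F0, F2 minus F1 and F2 minus F0. Grey bands are the SD between probes of a gene, at 0.162, 0.213 and 0.239, and the dotted line is 2-fold. Ms4a7 at 1.10 in the last panel is the point past it.

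Markers of other cell types also differed between the arrays. B cell markers, 7 genes in the table of 12 named, had a summed signal of 505 on F0, 497 on F1 and 8213 on F2, against 398 on chow. On F2 7 of 7 were at least 2-fold higher than on chow, with Cd79b at 10.99 against 6.24, while Pax5, Jchain and Cr2 were detected on no array. T cell markers, 9 of 12, had a summed signal of 2676, 2664 and 4589, against 1947 on chow, which Cd8b1 carried on F0, F1 and chow. Cd8b1 lay at 11.07, 11.09 and 10.50, against 10.64 on chow. The median log2 signal of the list was 6.45, 6.31 and 9.16, against 5.43 on chow. On F2 7 of 9 were higher, and Cd8a and Cd5 were detected on no array. Mast cell markers, 9 of 10, had a summed signal of 990, 2282 and 7380, against 2416 on chow, with 5 of 9 lower on F0 and 7 of 9 higher on F2. Rgs1, Cd84 and Lat2, which lymphocytes or mast cells also use, were highest on F2, as were these lists. So was each other measured gene of the group except Cd14. On F0 the log2 differences of Rgs1, Cd84 and Lat2 from chow were 3.81, 3.49 and 3.12. The medians of the B cell, T cell and mast cell lists there were 0.37, 0.22 and -1.29. The part of the lists in the values of Rgs1, Cd84 and Lat2 was not tested. At least 2-fold higher than on chow were 0 of 7 B cell, 2 of 9 T cell and 0 of 9 mast cell markers on F0, and 1 of 7, 1 of 9 and 0 of 9 on F1.

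Neutrophil markers, 7 of 10, had a summed signal of 1357, 1608 and 1378, against 406 on chow, which S100a8 carried. S100a8, a calcium-binding protein that macrophages also make, lay at 10.04, 10.47 and 10.14, against 7.37 on chow. The granule genes Ngp and Camp and the receptor gene Cxcr2 were detected on no array, and S100a9 differed from chow by 0.91, -0.59 and 0.44. Dendritic cell markers, 7 of 10, had a median difference of -0.10, -0.39 and -0.26, with Flt3, Xcr1 and Ccr9 detected on no array. Cd83, an activation marker, differed by 2.38, 2.86 and 3.29. Itgax, which macrophages of fat also use, was detected on F1 and F2, at least 1.25-fold and 1.44-fold over chow.

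Pan-leukocyte genes, which every white blood cell uses, were higher too, 9 of 12 on F0, 9 of 12 on F1 and 11 of 12 on F2, with medians of 1.44, 1.80 and 2.63. The macrophage identity genes had larger medians, 2.68, 3.53 and 3.79, but they were chosen with these differences known, so the comparison is a description only. Among the pan-leukocyte genes Ptprc, which encodes CD45, was not detected on F0 or chow by its brightest probe, and lay at 5.03 on F1 and 5.19 on F2. Between F2 and F0 the pan-leukocyte median was 1.08, with 7 of 12 at least 2-fold higher, beside 0.75 and 1 of 9 for the macrophage identity genes.

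**Figure D4:**
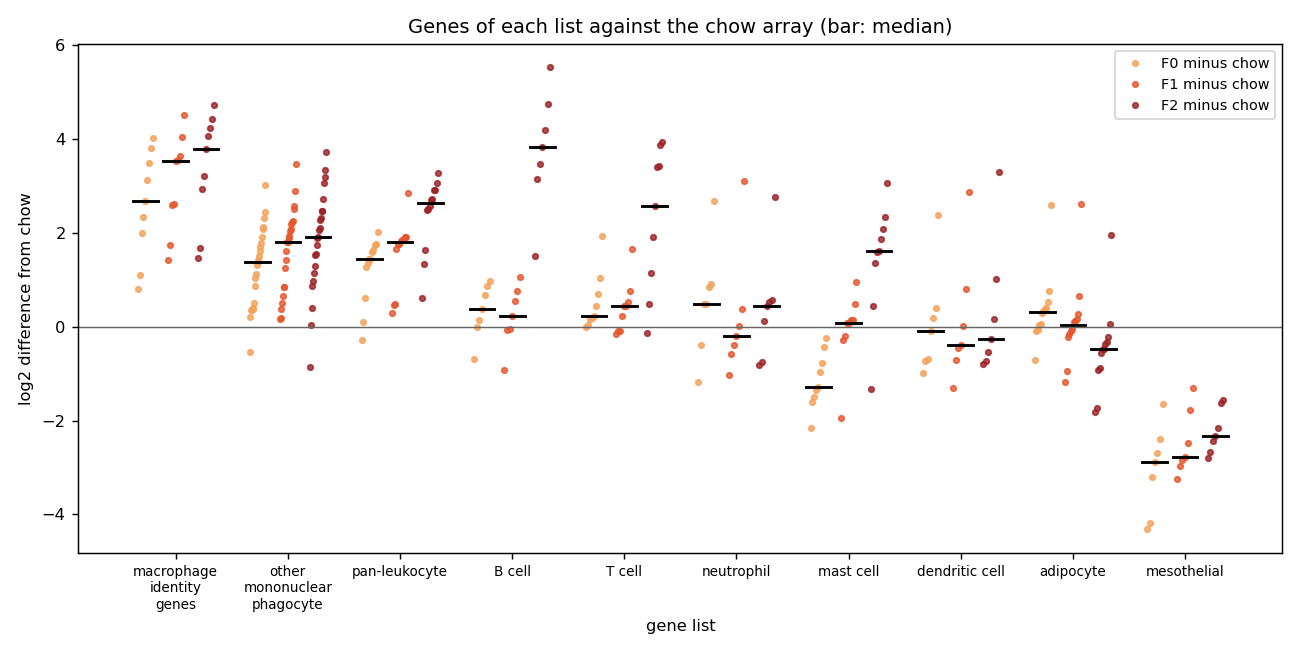
Log2 difference from chow (vertical axis) of each gene in the table from 10 gene lists (horizontal axis), for the F0, F1 and F2 arrays, with a bar at the median. The macrophage identity genes have medians of 2.68, 3.53 and 3.79, and the B cell, T cell and mast cell lists have their highest medians on F2.

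Other genes of mononuclear phagocytes gave a broader picture. Of 24 named, 23 were in the table, and 15 were at least 2-fold higher on F0 than on chow, 16 on F1 and 18 on F2, with 0 lower on each. Their medians of 1.38, 1.80 and 1.91 were below those of the 9 genes, which were chosen with their differences known. With the 3 high fat arrays pooled against the 1 chow array, limma called 12 of 23 higher and 0 lower at an adjusted p under 0.05, against 2.90% and 3.41% of all genes. Tyrobp, the adaptor of many myeloid receptors, rose by 3.40 ± 0.31 (log2, limma's SE, adjusted p = 0.0146), and Mpeg1, a pore-forming protein of phagocytes, by 2.69 ± 0.28 (limma, adjusted p = 0.0178). Hpgds, the haematopoietic prostaglandin D synthase, rose by 2.80 ± 0.39 (limma, adjusted p = 0.0262). Ctss, a lysosomal protease, differed by 2.13, 2.25 and 3.34 and did not pass (limma, adjusted p = 0.0602). All 3 high fat arrays lay above chow for each of these. Not every gene of the list reached 2-fold. Cd163, a haemoglobin scavenger receptor, differed by -0.55, 0.16 and -0.87, and Mrc1, the mannose receptor, by 0.37, 0.85 and 0.97. This fit treats 3 generations as samples of 1 diet, its spread holds none of chow, which is 1 array, and the list was chosen with earlier results of these arrays known. Its calls changed with the arrays used: without F1 it called 0 of 23, with 16 at an unadjusted p under 0.05, and 1 gene of 11384 in all. It called 16 of 23 without F0, 17 without F2 and 2 on the authors' value table. The reason for the loss without F1 was not tested. All 11 genes that are said here and in the next paragraphs to have risen lost their call without F1, at adjusted p-values of 0.0906 to 0.223 by limma, and kept it without F0 and without F2.

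Csf1 and Il34, the ligand genes of Csf1r, differed from chow by -0.28 and 0.14 on F0, by -0.46 and 0.02 on F1 and by -0.64 and -0.67 on F2. Among the lineage transcription factors Spi1 lay at 6.94, 7.46 and 7.46, against 5.04 on chow, and rose by 2.25 ± 0.30 (limma, adjusted p = 0.0250). Batf3 rose by 1.47 ± 0.26 (limma, adjusted p = 0.0426), and it is known for its role in dendritic cells. Irf8 differed by 0.56, 1.11 and 1.67 and Runx1, not detected on chow, was at least 1.61-fold, 1.99-fold and 2.43-fold higher, and neither passed the test. Of the 11 genes of this list in the table, 2 rose and 0 fell.

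Of the genes that recognise lipopolysaccharide with Cd14, 11 were in the table, 3 rose and 0 fell. Tlr4 itself differed by -0.02, 0.07 and 0.06 and its partner Ly96 by 0.73, 0.53 and 0.39. The 3 were Cd180, a relative of Tlr4, by 3.06 ± 0.43 (limma, adjusted p = 0.0275), its partner Ly86 by 2.08 ± 0.34 (limma, adjusted p = 0.0364) and the adaptor Ticam2 by 1.49 ± 0.25 (limma, adjusted p = 0.0389).

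Of the Ms4a and Tmem176 genes, 7 of 16 with a probe were in the table, and Ms4a6d alone rose, by 2.71 ± 0.42 (limma, adjusted p = 0.0339), from the cluster that also holds Ms4a7. Of 12 other Rgs genes 0 rose and 0 fell (limma, adjusted over all genes). The largest differences were those of Rgs11, not detected on F0 or F1, where chow was at least 2.04-fold and 1.98-fold higher, Rgs7, at -0.78, -1.30 and -1.65, and Rgs10, a regulator in myeloid cells, at 0.77, 1.27 and 1.65. Of 7 SLAM relatives and adaptors of Cd84, Slamf9 alone rose, by 1.39 ± 0.20 (limma, adjusted p = 0.0301), while on F2 4 of 7 were at least 2-fold over chow, with the 4 genes not detected on chow taken at their bound. Among them were the lymphocyte genes Slamf6, at 7.31 and not detected on chow, and Ly9 at 2.92. Cd48, a SLAM family ligand not detected on F1 or chow, was at least 1.16-fold over chow on F0 and 1.90-fold on F2. Of 7 signalling partners of Lat2, 0 rose and 0 fell by limma, with Btk at 1.87, 2.19 and 3.45 and Plcg2 at 0.91, 1.26 and 2.70. Lat, the T cell relative of Lat2, lay at 5.05, 5.42 and 7.43, and was not detected on chow.

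Around Dpep2, 5 genes of leukotriene metabolism were in the table. Alox5ap, which presents arachidonic acid to 5-lipoxygenase, rose by 1.61 ± 0.28 (limma, adjusted p = 0.0416). The lipoxygenase gene Alox5 differed by -0.36, -0.38 and -0.36 and Ltc4s, leukotriene C4 synthase, by 1.29, 1.05 and 0.33. Of the lysosomal membrane genes listed beside Cd68, Lamp1 differed by 0.42, 0.45 and 0.47, Lamp2 by -0.26, -0.18 and 0.03 and Cd63 by 0.26, 0.60 and 0.76. Of the relatives of Adgre1, Adgre5 differed by 0.76, 0.55 and 1.09, and Adgre4 was detected on no array.

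The genes most like the group were found by the root mean square distance of their 3 differences from chow to the mean profile of the 9 genes, 2.60, 3.07 and 3.39, among 8995 other genes detected on all 4 arrays. The 6 nearest were Prc1 at a distance of 0.0468, Lpxn at 0.0780, H2ac12 at 0.0959, Trem2 at 0.0972, H2ac11 at 0.0988 and H2ac15 at 0.101. Trem2 is a lipid receptor of macrophages and Lpxn encodes leupaxin, an adhesion adaptor of blood cells. Prc1 acts in cell division, and the H2ac genes encode near-identical histones whose probes may share transcripts. The 9 genes themselves lay at distances from 0.320 for Lyz2 to 1.79 for Csf1r.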

How the data were processed

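Total RNA of white adipose tissue was labelled as biotinylated cRNA and hybridised to 4 Illumina bead arrays, per the labels' protocols. GenomeStudio 2010.2 is named in the submitters' processing notes. Per the file headers, the deposited table holds a linear intensity per probe, scaled by an unstated step to the same mean on each array, and a deposited detection p-value in steps of 1 in 936. The authors' value table, an intensity that follows the other on a straight line and reaches below 0, with column medians of 5.69, 5.60, 6.24 (F0, F1, F2) and 6.17 (chow), served as an alternative; the step that made it is not given in the sources used here.

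Background was corrected with nec in limma 3.58.1 (R 4.3.3), with an offset of 16 and negative controls derived from detection p-values, followed by quantile normalization and log2. Symbols came from the platform annotation: 34885 of 45281 probes had 1 symbol, 18 several and 10378 none, and 34807 were matched by gene ID to RefSeq (GRCm38.p6). A gene detected on at least 1 array took the value of its brightest probe. Pairs of arrays were compared by size with no test. The 3 high fat arrays were set against 1 chow array in limma (lmFit, then eBayes with trend; two-sided, Benjamini-Hochberg over 11384 genes), after a test on simulated data. The high fat arrays are not stated to be replicates. These p-values set their difference from the 1 chow array against a spread estimated from the high fat arrays alone.

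The members and lists were chosen with earlier results of these data known. The text names the 9 measured members with their probes, 16 genes given throughout, members of each list among the 4 with the largest mean difference from chow, further members where they bear on a gene of the group, chosen after their values were seen, and the 6 nearest genes by profile. Alternatives changed the background step, offset, normalization, source table, probe choice, detection threshold, filter, floor and fold, and left out arrays. The columns of per-sample values not used number 0.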

Additional observations from a re-analysis of the deposited data

Results flagged for a closer look

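By their measured values, 3 genes of other cell types lay on opposite sides of chow on different high fat arrays; the difference between the arrays was not tested. The mast cell protease gene Mcpt4 differed by -1.29 on F0, 0.48 on F1 and 2.34 on F2. Fcer1a, a chain of the mast cell receptor for immunoglobulin E, differed by -0.97, 0.96 and 3.07. Ttr, the thyroxine carrier made by liver, differed by -0.50, 5.21 and 6.26, but its F0 signal was not detected and chow was at least 1.02-fold above it, so F0 is not shown to lie below chow. None of the 9 macrophage identity genes was on opposite sides of chow.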

How the results depend on the processing

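The 2-fold counts of the 9 genes against chow were 7 or 8 on F0 and 9 of 9 on F1 and F2 under every alternative run at that fold, and no difference of 2-fold or more changed sign. Their median log2 difference from chow moved by more than the SD between probes without background correction (2.36 on F0, 3.15 on F1 and 3.43 on F2), with an offset of 50 (3.22 on F1) and over the mean of each gene's probes (1.93, 2.07 and 2.47). At 1.5-fold in place of 2-fold, 4 of 9 were higher on F1 than on F0 (2.69% of all genes), 2 on F2 than on F1 (6.94%) and 8 on F2 than on F0 (10.9%). The limma count of 12 other mononuclear phagocyte genes became 2 on the authors' value table and ranged over 0 to 17 with 1 high fat array left out (0 without F1). The causes were not tested. Over all genes limma called 330 higher and 388 lower, and 1 and 0 without F1, 570 and 496 without F0, 1569 and 1607 without F2 and 144 and 790 with the authors' value table. The split of all genes at 2-fold on F0, 762 higher to 757 lower, was 621 to 951 with median scaling, which moved the all-gene median to -0.11, and 756 to 1216 with the authors' value table; on F1 840 to 718 became 853 to 1122 with that table, and for F2 against F0 526 to 288 became 627 to 197 with median scaling. Genes near the lowest detected signal on chow, such as Dpep2 and Rgs1, have the least certain folds. No paired analysis was possible because each group is 1 array.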
